A study of Homo sapiens with 6 samples.

Results

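The genes described here encode factors that build ribosomes in the nucleolus, with the small-subunit processome at their centre. They were chosen by name, with earlier results of these data known. Of 60 named factors, 59 have listed transcripts among the 11387 genes of the tables, and all 59 passed the filter on low values that left 10475 genes for testing (6-library mean of 1 FPKM or more). FPKM are fragments per kilobase of transcript, scaled to the mapped fragments of the library, and transcript values were summed to a gene level. BOP1 was not analysed here. The libraries come from 92.1 cells, an established human line of ocular melanoma. Of the 6 libraries, 3 carry the label NC and a wild-type genotype, and the other 3 carry the label shALKBH3 and an ALKBH3 knockdown genotype, the sh prefix being customary for short hairpin RNAs. Whether NC cells carry a control hairpin, whether the knockdown line is 1 clone, and whether the libraries of a group came from separate cultures is not given in the sources used here, so a p-value here reflects the spread among these libraries alone, which may be technical.

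Ribosome assembly starts on the growing ribosomal RNA precursor. The UTP-A subcomplex, to which WDR75 belongs, binds the leading end of the precursor first and is also linked to its transcription by RNA polymerase I. UTP-B, the U3 box C/D particle, the Mpp10 complex and many single factors then join to form the small-subunit processome, in which the precursor is folded, modified and cleaved. Later factors carry the released pre-small subunit through its last steps in the nucleus and cytoplasm, and a separate set assembles the large subunit. Dividing tumour cells, melanoma cells included, depend on a high output of this pathway.

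ALKBH3, the targeted demethylase gene, was at 10.5, 10.6 and 9.19 FPKM in NC replicates 1, 2 and 3, against 3.29, 3.60 and 4.24 in shALKBH3 replicates 1, 2 and 3. Its log2 change on the log2(FPKM + 1) scale, which is used for all differences here, was -1.24 (limma adjusted p = 0.0079). Of 8 melanocyte markers only MITF had listed transcripts, at 3.29 to 9.53 FPKM in NC against 10.3 to 14.0 in shALKBH3, and PMEL, MLANA, TYR, DCT, TYRP1, SOX10 and S100B were not analysed here. None of 4 endothelial and none of 4 epithelial markers were listed, 3 of 6 fibroblast markers summed to 23.2 to 34.4 FPKM in NC against 23.8 to 29.1 in shALKBH3, and the leukocyte list had CD68 alone, at 14.7 to 18.9 FPKM in NC against 33.8 to 37.4 in shALKBH3 (log2 change 1.10, limma adjusted p = 0.010). Of the fibroblast markers, COL1A2 was at 7.22 FPKM in NC replicate 1 and at 0.308 to 0.783 FPKM in every other library. The part of these markers in the results was not tested. Sequencing depth is unknown, because the tables hold estimated FPKM and no counts.

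WDR75 was the member that stood apart. It is a WD-repeat subunit of UTP-A needed for transcription and early cleavage of the precursor. WDR75 (ENSG00000115368, chromosome 2) was at 8.58, 6.04 and 18.8 FPKM in NC replicates 1, 2 and 3, against 1.00, 0.772 and 0.371 in shALKBH3 replicates 1, 2 and 3. The groups did not overlap, and NC replicate 3 lay well above the other controls. Its mean fell from 11.2 ± 6.78 to 0.716 ± 0.320 FPKM (SD, n = 3 each), a log2 change of -2.70 (95% interval -3.65 to -1.75, limma adjusted p = 0.034). That call was lost without NC replicate 1 (limma adjusted p = 0.12) or without shALKBH3 replicate 1, 2 or 3 (0.089, 0.13 and 0.14), while the log2 change stayed between -3.02 and -2.28 over all 6 fits that left out 1 library. The value rests on 1 listed transcript, WDR75-201, a protein-coding transcript of 2701 nucleotides.

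None of the 5 UTP-A partners of WDR75 passed the test. All 5 are fellow subunits of the complex. UTP4, a WD-repeat protein also called cirhin, was at 18.9, 18.8 and 18.8 FPKM in NC replicates 1, 2 and 3, against 18.0, 20.9 and 20.3 in shALKBH3, a log2 difference of 0.061. UTP15 was at 4.22, 5.71 and 5.69 FPKM in NC against 6.43, 6.09 and 5.54 in shALKBH3, a log2 difference of 0.19. In both genes the groups overlapped. WDR43 was at 31.5, 28.7 and 27.2 FPKM in NC against 26.0, 30.4 and 26.1 in shALKBH3, a log2 difference of -0.081. HEATR1, the large helical-repeat subunit, was at 6.93, 8.91 and 5.55 FPKM in NC against 8.13, 9.16 and 8.37 in shALKBH3, a log2 difference of 0.25. It was 0.073 with transcript length and GC content corrected for, 0.11 without NC replicate 3 and 0.40 without NC replicate 2. NOL11 was at 17.3, 18.9 and 17.4 FPKM in NC against 16.3, 12.4 and 16.8 in shALKBH3, a log2 difference of -0.24. It was the only partner whose knockdown libraries all lay below the controls, as was the case for 12% of all genes. Limma adjusted p-values of the 5 partners ran from 0.40 (NOL11) to 0.74 (UTP4). The 95% intervals of their log2 differences reached down to -0.55 (NOL11) and up to 0.65 (HEATR1), so each lay above the interval of WDR75, and their median log2 difference was 0.061.

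**Figure D1:**
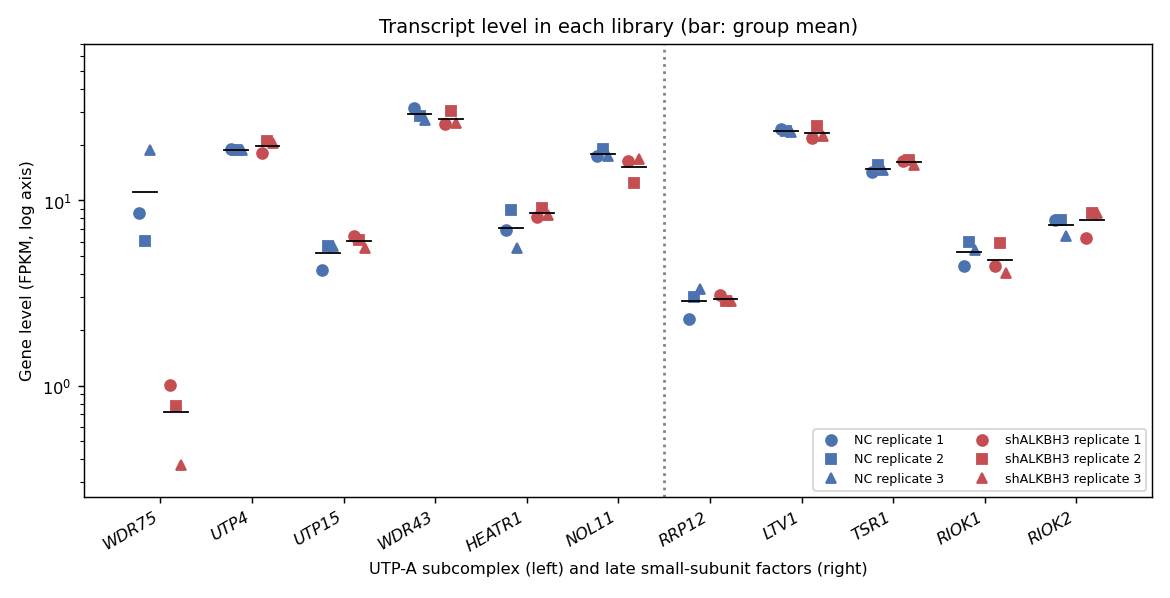
Gene level in FPKM on a log axis for the 6 UTP-A genes and the 5 late small-subunit factors, one point per library (NC blue, shALKBH3 red, replicate by symbol) with a bar at each group mean. The 3 knockdown points of WDR75 lie at 1.00 FPKM or below, under every other point, and the NC points of WDR75 spread from 6.04 to 18.8 FPKM.

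Within each library WDR75 could be set against its partners, since FPKM are scaled to length. WDR75 has 1 listed transcript while each partner is a sum of 2 to 5, so the levels are not strictly alike. In NC replicates 1, 2 and 3 it stood at 49.5%, 32.1% and 108% of the partners' median level, with 2, 1 and 4 of the 5 partners below it. In shALKBH3 replicates 1, 2 and 3 it stood at 6.18%, 6.23% and 2.21% of that median, with 0 of 5 partners below it. The lowest partner in each knockdown library was UTP15, at 5.54 to 6.43 FPKM.

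The bases before the start sites of WDR75 and of 2 partners, WDR43 and HEATR1, are shown because the level of WDR75 dropped while those of the partners did not pass the test. They are from RefSeq on GRCh38.p14, from 250 bases before the start to the first base that GENCODE annotates as exon. Capitals mark GGGCGG, the GC box bound by SP-family factors, or its reverse complement CCGCCC.
WDR75, chr2:189441224-189441432, plus strand: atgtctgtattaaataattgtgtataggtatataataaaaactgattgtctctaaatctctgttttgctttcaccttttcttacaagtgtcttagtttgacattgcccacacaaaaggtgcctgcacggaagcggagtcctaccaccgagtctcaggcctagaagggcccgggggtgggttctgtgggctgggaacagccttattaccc
WDR43, chr2:28894417-28894642, plus strand: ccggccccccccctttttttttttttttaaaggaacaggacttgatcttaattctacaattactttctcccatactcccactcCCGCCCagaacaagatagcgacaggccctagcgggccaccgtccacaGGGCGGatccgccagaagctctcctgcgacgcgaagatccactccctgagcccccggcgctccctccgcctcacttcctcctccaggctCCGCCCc
HEATR1, chr1:236604517-236604766, minus strand: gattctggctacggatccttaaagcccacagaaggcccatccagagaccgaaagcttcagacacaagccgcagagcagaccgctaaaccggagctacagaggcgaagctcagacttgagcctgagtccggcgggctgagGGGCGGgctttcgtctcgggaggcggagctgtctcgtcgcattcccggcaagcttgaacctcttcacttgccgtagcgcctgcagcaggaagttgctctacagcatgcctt
The printed WDR75 stretch of 209 bases holds none of the 6 motifs searched, while the full window of 250 bases holds GGGCGG and CCAAT beyond the stretch shown. WDR43 and HEATR1 hold the GC box in the stretch shown.

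UTP-B, a scaffold built mainly of WD-repeat proteins, showed no member past the test. UTP18 was at 35.5, 37.2 and 39.5 FPKM in NC replicates 1, 2 and 3, against 31.1, 36.5 and 32.2 in shALKBH3 replicates 1, 2 and 3 (log2 difference -0.17, limma adjusted p = 0.40). PWP2 was at 1.04, 2.00 and 2.26 FPKM in NC against 1.79, 0.733 and 0.927 in shALKBH3 (log2 difference -0.37, limma adjusted p = 0.50). Its groups overlapped. Log2 differences of WDR3, UTP6, TBL3 and WDR36 ran from -0.32 (TBL3) to 0.50 (WDR36), and the median of the 6 was -0.067. With length and GC content corrected for, that median was -0.16. WDR36, TBL3 and PWP2 each varied more than 2-fold among the libraries of either group alone.

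In the Mpp10 complex 3 genes were lower in every knockdown library, as were 12% of all genes, without passing the test. IMP4, which helps the U3 RNA pair with the precursor, was at 5.55, 4.66 and 6.99 FPKM in NC replicates 1, 2 and 3, against 3.97, 3.05 and 2.91 in shALKBH3 replicates 1, 2 and 3. Its log2 difference was -0.64 (SE 0.170, limma adjusted p = 0.15), which passed the threshold only with array weights (limma adjusted p = 0.0496). UTP3, also known as SAS10, was at 34.1, 35.5 and 35.0 FPKM in NC against 28.5, 29.5 and 29.95 in shALKBH3. Both groups were tight, with means of 34.9 ± 0.713 and 29.3 ± 0.759 FPKM (SD, n = 3 each) and a log2 difference of -0.24 (SE 0.068, limma adjusted p = 0.17). IMP3 had a log2 difference of -0.30. The scaffold gene MPHOSPH10 itself was at 13.4 ± 2.06 FPKM in NC against 16.2 ± 1.44 in shALKBH3 (SD, n = 3 each), a log2 difference of 0.27 in the other direction, and NOL6, of the UTP-C module, had 0.20. NOL6 was at 5.94 FPKM in shALKBH3 replicate 1 and at 3.01 to 3.81 in the other 5 libraries, and without that replicate its log2 difference was -0.0011. It was -0.20 with the most abundant transcript.

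All 4 box C/D genes had negative log2 differences, as did 51.3% of all genes. Their median was -0.28, and -0.23 with transcript length and GC content corrected for. FBL and NOP58 lay lower in every knockdown library, as did 12% of all genes. FBL encodes fibrillarin, the enzyme that methylates ribose in the precursor under guidance of box C/D RNAs. It was at 179, 167 and 198 FPKM in NC replicates 1, 2 and 3, against 137, 114 and 140 in shALKBH3 replicates 1, 2 and 3, a mean 28.2% lower. The groups did not overlap, but the log2 difference of -0.48 missed the threshold (SE 0.110, limma adjusted p = 0.11), and it was -0.29 with transcript length and GC content corrected for. NOP58, a core protein that holds the guide RNA, was at 55.4, 52.0 and 58.0 FPKM in NC against 43.1, 51.4 and 48.3 in shALKBH3 (log2 difference -0.21). Its partner NOP56 had a log2 difference of -0.28 and RRP9, which binds U3, of -0.28, both with overlapping groups.

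The 12 other processome factors had a median log2 difference of -0.058 (-0.14 with length and GC content corrected for, against -0.019 for all genes). The farthest from 0 was NOC4L, which works with NOP14, at 4.58, 5.47 and 6.55 FPKM in NC replicates 1, 2 and 3, against 5.22, 3.14 and 2.85 in shALKBH3 replicates 1, 2 and 3 (log2 difference -0.49, limma adjusted p = 0.32). WDR46 was at 8.48, 10.8 and 9.06 FPKM in NC against 8.88, 6.96 and 8.48 in shALKBH3 (log2 difference -0.20). Groups overlapped in all 12, where 12% of all genes lay lower and 12.9% higher in every knockdown library. The GTPase BMS1 (-0.0099), its partner RCL1 (-0.10), the helicases DDX10 (-0.066) and DDX52 (0.0039), the cytidine acetyltransferase NAT10 (-0.035), UTP14A (-0.049), UTP20 (0.050), NOL10 (-0.075), NOP14 (-0.15) and DCAF13 (0.053) made up the rest. DCAF13 was the least certain of them, ranging from 5.79 to 18.2 FPKM in NC and from 7.86 to 22.2 FPKM in shALKBH3, with a 95% interval of its log2 difference from -1.18 to 1.28.

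The 4 box H/ACA genes serve the particle that turns uridine into pseudouridine. NHP2 was at 79.1, 73.6 and 91.9 FPKM in NC replicates 1, 2 and 3, against 75.4, 57.7 and 65.4 in shALKBH3 replicates 1, 2 and 3 (log2 difference -0.30, limma adjusted p = 0.31). NOP10 was at 157, 134 and 160 FPKM in NC against 148, 121 and 126 in shALKBH3 (log2 difference -0.19). GAR1 had a log2 difference of -0.14 and DKC1, the pseudouridine synthase itself, of 0.095. Groups overlapped in all 4, where 12% of all genes lay lower and 12.9% higher in every knockdown library. NHP2 and NOP10 have the shortest transcripts of all members, 844 and 554 nucleotides, and their log2 differences with length and GC content corrected for were -0.099 and -0.050.

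Among 14 large-subunit factors none passed, 4 lay lower in every knockdown library and 1 lay higher in every one, where 12% and 12.9% of all genes did so. RRS1, which brings the 5S particle into the pre-large subunit, was at 13.9, 13.6 and 18.1 FPKM in NC replicates 1, 2 and 3, against 10.2, 7.79 and 11.5 in shALKBH3 replicates 1, 2 and 3. Its log2 difference was -0.59 (SE 0.172, limma adjusted p = 0.18). NOP16 was at 15.5, 17.5 and 16.95 FPKM in NC against 15.1, 13.3 and 13.1 in shALKBH3 (log2 difference -0.25, limma adjusted p = 0.27). NOC2L (log2 difference -0.29) and NOP2, a methyltransferase of the large ribosomal RNA (-0.30), were the other members below the controls throughout. GNL2, a nucleolar GTPase, was at 25.4, 25.9 and 22.2 FPKM in NC against 26.3, 29.8 and 28.2 in shALKBH3, above the controls throughout, with a log2 difference of 0.19. PES1 and WDR12, the partners of BOP1, had log2 differences of -0.19 and -0.16. RRP1 (-0.54), RRP1B (-0.24), GNL3 (-0.19), BRIX1 (-0.11), NOC3L (-0.038), the helicase DDX18 (0.018) and EBNA1BP2 (0.026) had overlapping groups, and the median of the 14 was -0.19.

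NPM1 was the second member that fell. It encodes nucleophosmin, an abundant chaperone of the outer nucleolus that binds ribosomal proteins and histones. NPM1 (ENSG00000181163, chromosome 5) was at 865, 882 and 869 FPKM in NC replicates 1, 2 and 3, against 647, 707 and 665 in shALKBH3 replicates 1, 2 and 3. The controls differed by little and every knockdown library lay below them. Its mean went from 872 ± 8.99 to 673 ± 30.9 FPKM (SD, n = 3 each), 22.8% lower, with a log2 change of -0.37 (SE 0.061, limma adjusted p = 0.047). The call is close to the threshold: it was lost in 11 of 16 alternatives, among them each of the 6 that left out 1 library (limma adjusted p from 0.087 to 0.20) and scaling to equal summed FPKM (log2 -0.28, 0.12), and under quantile normalization the log2 difference was -0.17 (limma adjusted p = 0.36). NPM1 also has near-identical processed pseudogenes, so its level is uncertain where reads could be divided with them. The other nucleolar proteins of many functions, NCL (nucleolin), at 92.5, 114 and 87.6 FPKM in NC against 90.4, 79.5 and 80.7 in shALKBH3, and the helicase DDX21 had log2 differences of -0.22 and -0.098 with overlapping groups.

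The late small-subunit factors showed no member past the test and no member with separated groups. Of all genes, 12% lay lower and 12.9% higher in every knockdown library. TSR1, a GTPase-like factor that keeps immature subunits out of translation, was at 14.2, 15.5 and 14.5 FPKM in NC replicates 1, 2 and 3, against 16.3, 16.4 and 15.5 in shALKBH3 replicates 1, 2 and 3 (log2 difference 0.12). LTV1, an assembly factor released late, was at 24.5, 23.7 and 23.4 FPKM in NC against 21.8, 25.4 and 22.4 in shALKBH3 (log2 difference -0.041). RRP12, a factor in subunit export, was at 2.28, 3.00 and 3.33 FPKM in NC against 3.10, 2.87 and 2.85 in shALKBH3 (log2 difference 0.035). The kinases of the last steps did not separate either. RIOK1 was at 4.41, 5.999 and 5.42 FPKM in NC against 4.45, 5.89 and 4.03 in shALKBH3 (log2 difference -0.12), and RIOK2 was at 7.85, 7.82 and 6.45 FPKM in NC against 6.31, 8.55 and 8.55 in shALKBH3 (log2 difference 0.066). Limma adjusted p-values ran from 0.49 (TSR1) to 0.91 (RRP12). The 95% intervals of these 5 genes reached down to -0.52 (RIOK1) and up to 0.42 (RIOK2).

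Over all 59 factors 2 fell and 0 rose at a limma adjusted p under 0.05, or 3.39% lower, where 0.477% of all tested genes were lower, 1.28% higher and 1.76% called either way. That is 50 genes lower and 134 higher, a split of 24 and 151 after scaling to equal summed FPKM, where 1 of the factors (WDR75) was called. Both calls were known when the members were set. At an unadjusted p under 0.05, 7 were lower (11.9%) and 0 higher, against 8.15% and 8.98% of all genes. All 3 knockdown libraries lay below all 3 controls in 12 factors (20.3%) and above them in 1 (1.69%), against 12% and 12.9% of all genes. The 7 and the 12 both include WDR75 and NPM1, whose falls were known beforehand, so these shares are not independent of the choice of members. Of the 59 log2 differences, 41 were below 0 (69.5%, against 51.3% of all genes). That count was 33 after scaling to equal summed FPKM, which also moved the median of all genes up to 0.071. It is therefore not comparable with the 51.3%. With 1 library left out the count was 38 to 47, and 42 of the 59 kept their sign in all 6 such fits. Their median was -0.12, where the median of all genes was -0.0096. Set by stage, the median was 0.061 for the partners of WDR75, -0.078 for the 32 processome genes other than WDR75, -0.19 for the large-subunit factors and 0.035 for the late small-subunit factors. With length and GC content corrected for, the medians were 0.036 for the partners and -0.16 for the large-subunit factors. For the same 32 processome genes, which include the partners, it was -0.14. The sign of the late factors turned with length and GC content corrected for (-0.034), with the most abundant transcript (-0.038) and without NC replicate 1 (-0.023) or NC replicate 3 (-0.016). None of these medians was tested.

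**Figure D2:**
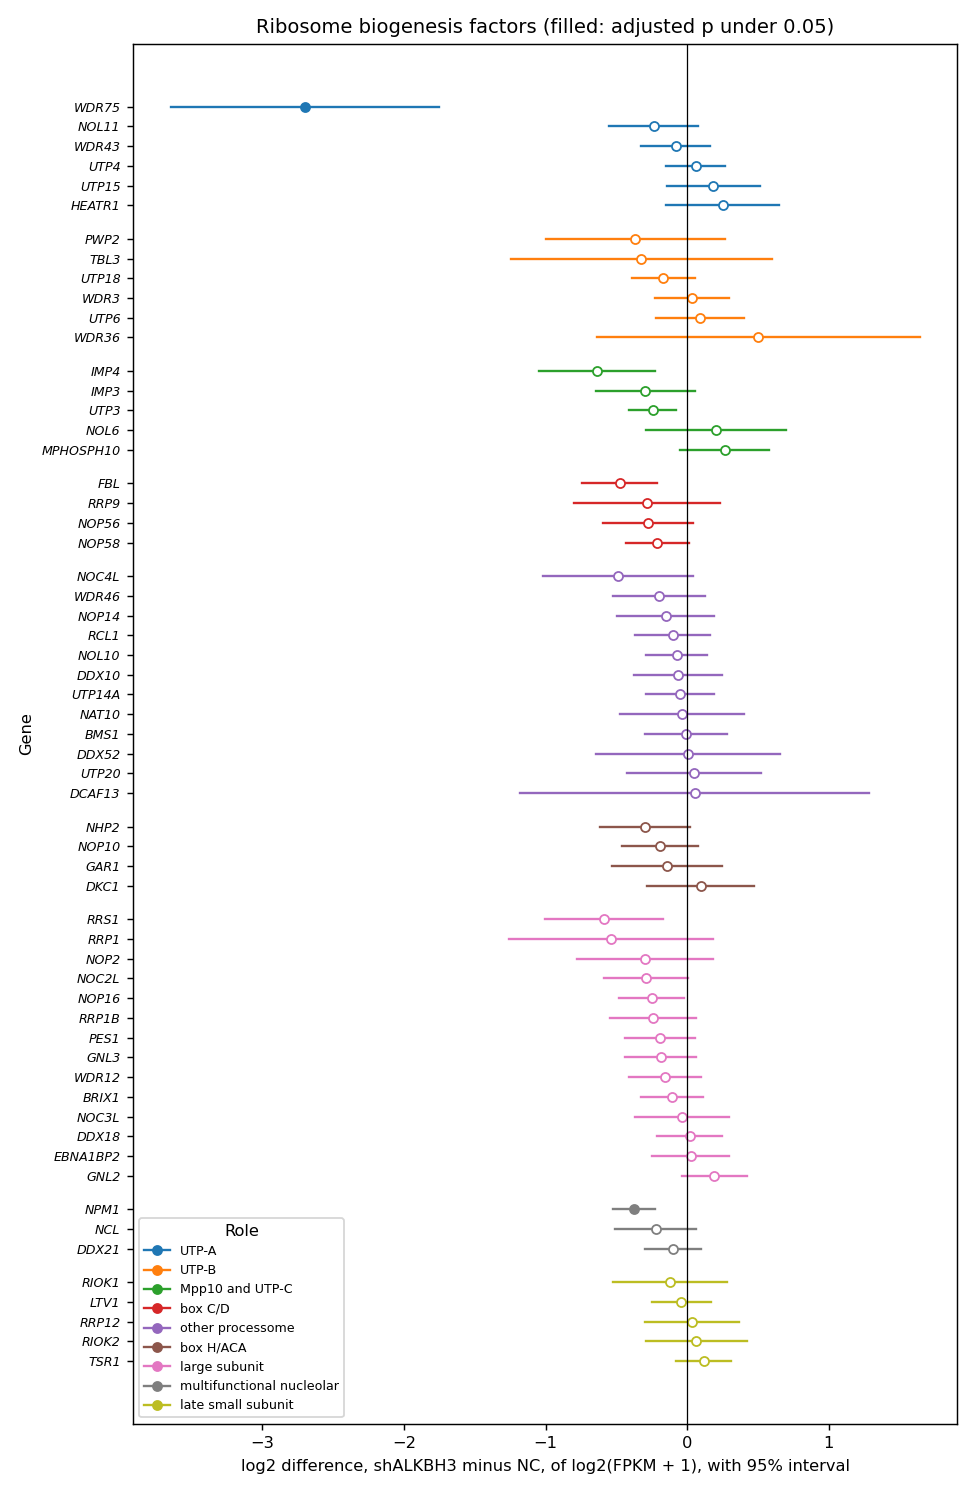
Log2 difference between shALKBH3 and NC for each of the 59 factors, with its 95% limma interval, coloured by role and sorted within it. WDR75 at -2.70 and NPM1 at -0.37 are filled as past the adjusted threshold, and the intervals of most other factors cross 0.

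Summed over the 59 genes, the level was 2141, 2175 and 2214 FPKM in NC replicates 1, 2 and 3, against 1803, 1820 and 1816 in shALKBH3 replicates 1, 2 and 3. NPM1 alone made up 39.2% to 40.6% of that sum in NC. Without it the sums were 1276, 1293 and 1345 FPKM in NC against 1156, 1113 and 1152 in shALKBH3, a mean 12.6% lower. Every knockdown library lay below every control, but the same held for the summed FPKM of all listed transcripts, which ran from 340950 to 361268 in NC and from 326875 to 333987 in shALKBH3. As a share of all summed gene FPKM, the factors without NPM1 made up 0.356%, 0.380% and 0.373% in NC and 0.347%, 0.341% and 0.345% in shALKBH3, still with no overlap. With FBL left out too, the sums were 1098, 1126 and 1147 FPKM in NC against 1019, 999 and 1012 in shALKBH3. Taken as a share of all summed gene FPKM, the groups then no longer separated. The mean level of the factors in NC ran from PWP2 (1.77 FPKM) and RRP12 (2.87) to FBL (181) and NPM1 (872), and the median member stood at 13.4 to 13.9 FPKM in NC against 11.5 to 12.6 in shALKBH3.

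Differences of the factors varied with the length of their transcripts. Across the 59 genes, which are not independent replicates, Spearman's rho of the log2 difference with length was 0.49 and with GC content -0.52. The same relations across all 10475 genes had rho of 0.35 and -0.31. Of the 19 factors under 2000 nucleotides, 17 had negative differences (89.5%, against 70.8% of all genes of that length). Their median was -0.19, against -0.14 in all genes of that length. In the 24 factors of 2000 to 3500 nucleotides the median was -0.14 against -0.025, and in the 16 longer ones 0.034 against 0.086. With both corrected for, rho with length was 0.059 and with GC content -0.18 over the factors. Then 46 of 59 differences were negative, for which the share of all genes is not given here. The median was -0.14 against -0.019 for all genes.

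**Figure D3:**
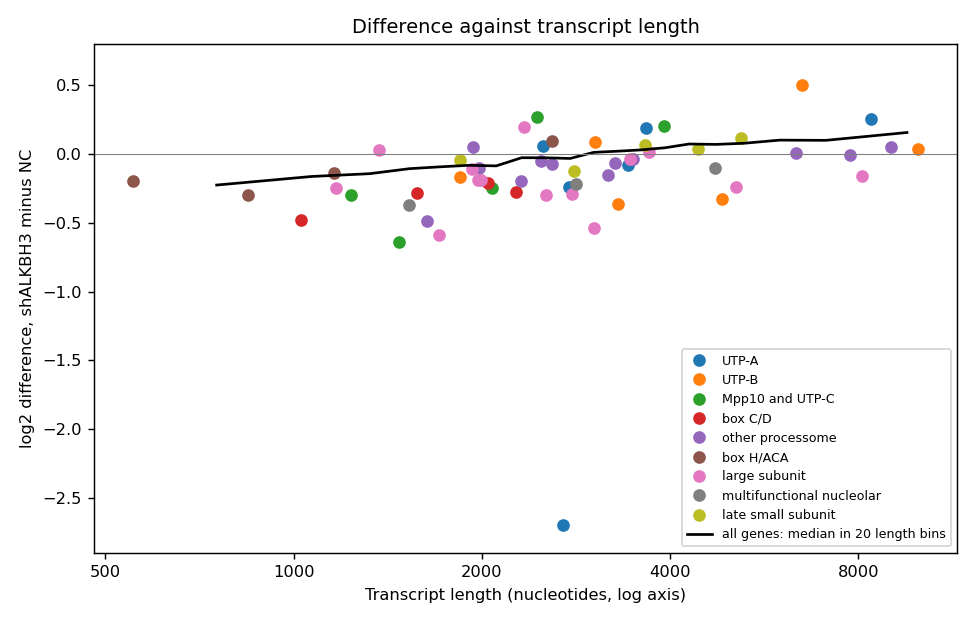
Log2 difference of each factor against its transcript length (log axis), coloured by role, with a line for the median of all tested genes in 20 bins of length. Short factors and short genes in general lie below 0, long ones near or above it, and WDR75 lies at -2.70.

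Of the 59 genes 25 have 1 listed transcript and 34 have several, 134 transcripts in all, of which 100 could be tested singly. None passed a limma adjusted p of 0.05 over 19698 transcripts, of which 0.472% did. At an unadjusted p under 0.05, 7 were lower and 1 higher, where 4.75% of all transcripts were lower and 4.99% higher. For WDR75-201 alone the adjusted p in this fit was 0.11, at the same log2 change of -2.70 but with an SE of 0.419 in place of 0.390. NPM1 was lower in its most abundant transcript, NPM1-203, at 414, 430 and 391 FPKM in NC replicates 1, 2 and 3, against 302, 345 and 321 in shALKBH3 replicates 1, 2 and 3 (limma adjusted p = 0.22). NAT10 had nearly equal gene sums, but NAT10-205 was listed at 0, 1.00 and 0 FPKM in NC against 2.08, 3.21 and 3.77 in shALKBH3 (limma adjusted p = 0.24). In TBL3 single transcripts appeared in 1 library only, TBL3-201 at 4.33 FPKM in NC replicate 2 and TBL3-208 at 3.24 FPKM in shALKBH3 replicate 1, and both were listed at 0 elsewhere. DCAF13-208 was near 0 (0.01 FPKM) in NC replicate 1 and at 6.81 to 15.3 FPKM in the other 5 libraries.

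**Figure D4:**
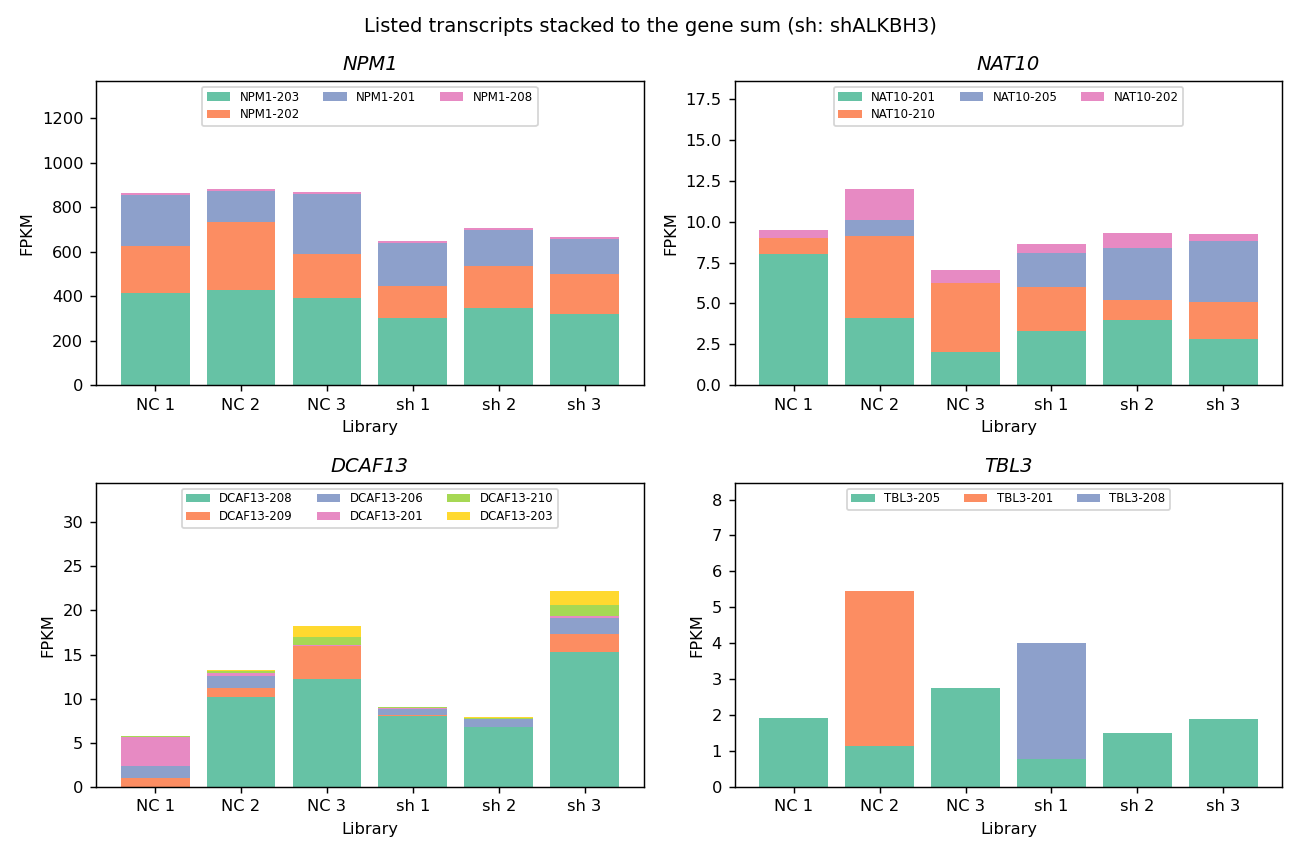
Listed transcripts of NPM1, NAT10, DCAF13 and TBL3 stacked to the gene sum in FPKM, one bar per library. The NPM1 bars drop from 865 to 882 FPKM in NC to 647 to 707 FPKM in shALKBH3. In each gene the makeup of the bars changes between libraries of 1 group. NPM1-201 was at 230, 138 and 271 FPKM in NC replicates 1, 2 and 3.

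Other genes of ribosome biogenesis, taken from 4 fixed lists, held no member past the test as reported, but some under 2 of the 16 alternatives. Array weights called POLR1C, POLR1D, RPF2, RSL24D1 and UTP11 lower, and the length and GC correction called FCF1 and RSL24D1 lower. Among all 10475 genes, array weights called 160 lower and 320 higher, and the length and GC correction called 66 lower and 167 higher. Of 117 tested genes 0 were higher and 0 lower in limma at an adjusted p under 0.05, with 18 lower (15.4%) and 0 higher at an unadjusted p under 0.05, against 8.15% and 8.98% of all genes. In 27 (23.1%) the knockdown libraries lay below all controls and in 2 (1.71%) above, against 12% and 12.9% of all genes, and the median log2 difference was -0.10. RNA polymerase I and its factors had a median of -0.038 over 17 genes. Its shared subunit gene POLR1D was at 85.5, 87.9 and 85.5 FPKM in NC replicates 1, 2 and 3, against 67.4, 59.6 and 68.6 in shALKBH3 replicates 1, 2 and 3 (log2 difference -0.40, limma adjusted p = 0.079), and POLR1C, also shared with RNA polymerase III, had -0.54 (limma adjusted p = 0.11). The 32 other small-subunit factors had a median of -0.16, and the smallest p-values were those of UTP11 (log2 difference -0.35, limma adjusted p = 0.12) and FCF1 (-0.33, limma adjusted p = 0.18). The 44 other large-subunit factors had a median of -0.086. RSL24D1 had a log2 difference of -0.38 (limma adjusted p = 0.076). RPF2, the partner of RRS1 on the 5S particle, was at 30.8, 27.7 and 16.0 FPKM in NC against 7.04, 15.8 and 8.36 in shALKBH3, a log2 difference of -1.21 (limma adjusted p = 0.18). The 24 genes of the exosome and processing nucleases had a median of -0.10, with EXOSC4 at -0.65 (limma adjusted p = 0.13) and POP7 at -0.47 (limma adjusted p = 0.18).

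**Figure D5:**
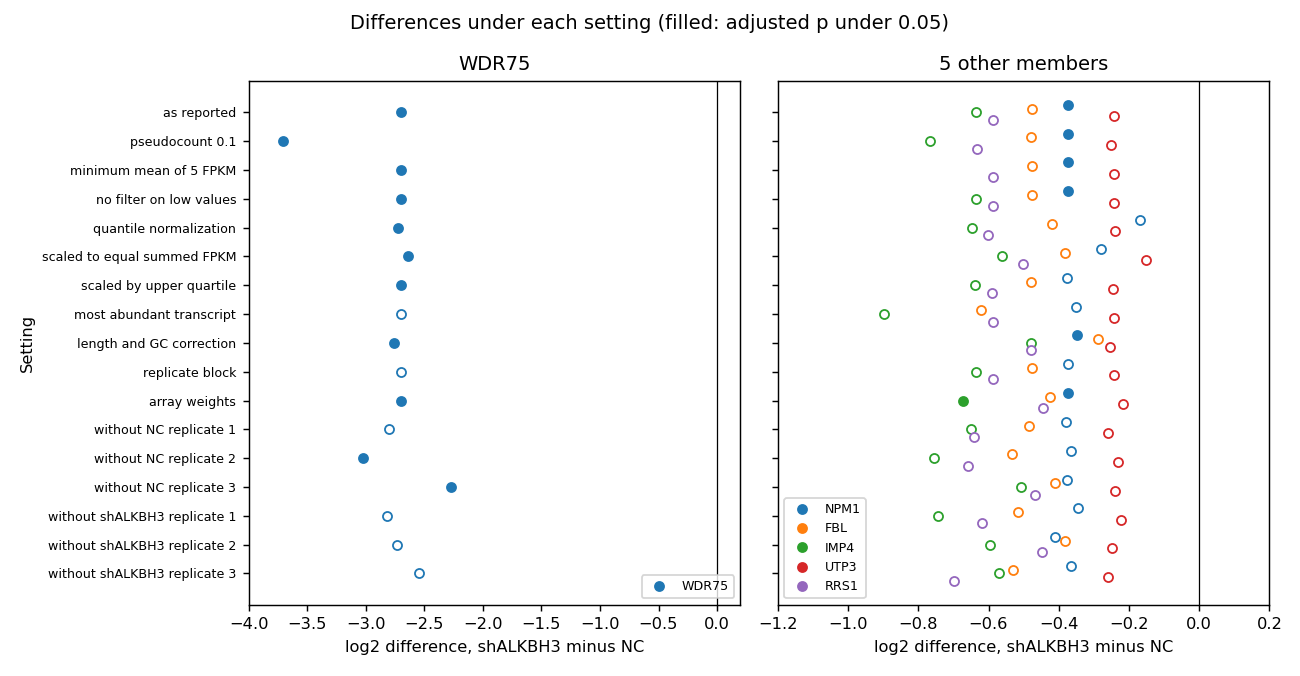
Log2 difference of WDR75 (left) and of NPM1, FBL, IMP4, UTP3 and RRS1 (right) as reported and under each of 16 alternatives, filled where the adjusted p is under 0.05. All points lie below 0, and WDR75 is open with the most abundant transcript, with the replicate block and in 4 of the 6 fits that left out 1 library.

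Targets of p53 were listed because faulty ribosome assembly is known to stabilise p53. None of 28 tested targets passed the adjusted threshold in limma, with 3 lower (10.7%) and 1 higher (3.57%) at an unadjusted p under 0.05, near the 8.15% and 8.98% of all genes for the lower count and below it for the higher. Their median log2 difference was -0.13. SESN2, a stress-induced regulator of growth signalling, had a log2 difference of -0.58 (limma adjusted p = 0.14) and the DNA damage gene DDB2 one of 0.99 (limma adjusted p = 0.18).

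Start sites in RefSeq were matched for 50 of the 59 factors, with 56 windows of 250 bases before the start. CCGGAAG or CTTCCGG, the core bound by ETS factors, was in 20 windows (35.7%), against 15.1% of the windows of all tested genes and 8.52% of all 35116 windows. CACGTG, the E-box bound by MYC, was in 9 windows (16.1%), against 8.31% and 6.34%. The NRF1 palindrome was in 3 (5.36%, against 1.8% and 1.03%), and the palindrome with a CGCG core in 2 (3.57%, against 0.718% and 0.373%). CCAAT or ATTGG was in 22 (39.3%, against 33% and 32%), and GGGCGG or CCGCCC in 38 (67.9%, against 64.8% and 42.6%). Among the UTP-A genes UTP4 held both CACGTG and CCGGAAG, NOL11 held the CGCG palindrome, and GGGCGG stood in all 6. The motifs were picked after the fits. Searches covered both strands, and motifs could overlap each other. These counts describe letters in the windows, and members were not tested against other genes.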

How the data were processed

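Transcript tables of 6 libraries, 3 NC and 3 shALKBH3, were analysed. The authors deposited FPKM per transcript, per the file headers; the submitters' processing notes name hg19, HTSeq 0.6.0 and DESeq2 with no role. Which estimator, aligner and annotation they used is not given in the sources used here. Tables list 28900 transcripts, of which 28796 matched GENCODE release 29 by identifier without version; the 104 others were left out. Every listed transcript has a group mean of at least 0.5 FPKM in one group. FPKM were summed per gene, and those averaging 1 FPKM or more were compared as log2(FPKM + 1), a scale that understates changes of low genes, with limma 3.58.1 in R 4.3.3 (empirical Bayes with trend, two-sided, Benjamini-Hochberg over 10475 genes, threshold 0.05), checked on simulated data. Summaries and plots were made with pandas 2.3.3, numpy 2.4.6 and matplotlib 3.10.9 under Python 3.11.15. The correction for length and GC content removed a smooth fit on both from each library. Members, roles, lists and tests were chosen with earlier results of these data known, and the motifs after the fits. Named were ALKBH3, every factor past the threshold, all UTP-A and late small-subunit genes, and the 2 smallest p-values of each other role and list; any other gene with values was chosen after these were seen. Alternatives changed the pseudocount, filter, scaling, gene summary, test and libraries. Depth is unknown, so no counting interval is given.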

Additional observations from a re-analysis of the deposited data

How the results depend on the processing

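Of 16 alternatives, none reversed WDR75 or NPM1. Genes higher and lower numbered 134 and 50; they were 80 and 25 with the most abundant transcript, 320 and 160 with array weights, and 39 to 87 and 9 to 22 when 1 library was left out. Scaling to equal summed FPKM gave 24 genes lower. Factors lower numbered 2; they were 1 under quantile normalization, scaling to equal summed FPKM or upper-quartile scaling, 0 with the most abundant transcript, 3 with array weights, where IMP4 was added, and 0 to 1 when 1 library was left out. WDR75 kept a log2 change of -2.70 with the most abundant transcript but missed the threshold (limma adjusted p = 0.063; the cause was not tested). It was -3.71 with a pseudocount of 0.1 and ran from -3.02 to -2.28 with 1 library left out. The median of the factors was -0.043 after scaling to equal summed FPKM, where that of all genes was 0.071, and the difference between both medians ran from -0.14 to -0.072 over the alternatives. The median of the UTP-A partners was 0.15 after that scaling, 0.31 with the most abundant transcript and 0.021 to 0.12 with 1 library left out (0.12 without shALKBH3 replicate 1). Of the genes named by the rule, signs turned for WDR43 (0.0099) and LTV1 (0.050) after scaling to equal summed FPKM, RRP12 (-0.078) without NC replicate 1, and RIOK2 with the most abundant transcript (-0.038), after the length and GC correction (-0.034) and without NC replicate 3 (-0.016), where RIOK2 otherwise reached 0.19 with 1 library left out. Of 570 values of the 36 genes named by the rule, 20 lost a call and 8 gained one, of which 6 came with array weights and 2 with the length and GC correction. Whether replicate numbers pair the samples is not stated by the labels. The values showed no sign of it: correlations of same-numbered libraries' deviations were -0.088, 0.075 and -0.012. With the replicate block 17 genes were higher and 3 lower, 0 factors were lower and WDR75 stood at -2.70 (limma adjusted p = 0.16). Depth is unknown, so what it limits could not be set.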

Other observations

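Of the 6 measured protein-coding neighbours of WDR75 on chromosome 2, by their order in RefSeq, none fell past the threshold and TFPI rose. COL5A2, the neighbour on one side, was at 12.3, 19.2 and 16.2 FPKM in NC replicates 1, 2 and 3, against 27.0, 29.5 and 27.1 in shALKBH3 replicates 1, 2 and 3, a log2 difference of 0.79 (limma adjusted p = 0.086). ASNSD1, the nearest tested gene on the other side, had a log2 difference of 0.14 (limma adjusted p = 0.62) and OSGEPL1 of -0.13 (limma adjusted p = 0.58). Of the genes beyond COL5A2, COL3A1 had a log2 difference of -1.03 (limma adjusted p = 0.40; -0.36 without NC replicate 1, where it was at 5.46 FPKM against 0.199 to 0.965 elsewhere), GULP1 -0.47 (limma adjusted p = 0.22) and TFPI 0.46 (limma adjusted p = 0.038). These genes were chosen after the values of WDR75 had been seen.

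MYC, whose product drives many ribosome biogenesis genes, was at 44.0 FPKM in NC replicate 1 and at 4.56 to 6.83 FPKM in the other 5 libraries, with a log2 difference of -0.81 (limma adjusted p = 0.62). In NC replicate 1 the median log2 deviation of the 59 factors from the NC mean was -0.042, against 0.068 and -0.020 in NC replicates 2 and 3. A relation between MYC and the factors was not tested.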
